A study of Mus musculus with 26 samples.

Results

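The genes described here encode the proteins of the cytosolic ribosome. Members were the symbols of the count table made of Rpl or Rps (or Rplp, for the stalk) and a number, with or without a closing a, l, x or l1, together with Rpsa. Symbols with -ps, which mark pseudogenes, were left out, and a member needed at least 500 counts over the 26 libraries. The pattern found 84 symbols, of which 80 of the 35976 genes in the table were kept. They were 43 proteins of the large subunit, 30 of the small subunit, the 3 stalk proteins Rplp0, Rplp1 and Rplp2, and 4 paralogues whose symbols end in l or l1 (Rpl22l1, Rpl7l1, Rps27l and Rps4l). The lowest total inside the minimum was that of Rps4l, at 2553 counts, and the highest below it that of Rpl32l, at 263 counts. Rpl3l with 242 counts, Rpl39l with 24 and Rpl10l with 0 were also left out.

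A ribosome is assembled in the nucleolus from ribosomal RNAs and 1 copy of most of these proteins, the small subunit decoding the messenger RNA and the large subunit forming the peptide bond. Because the proteins are needed in equal numbers, their messenger RNAs are commonly abundant and made at related rates, and many begin with a C followed by a run of pyrimidines (a terminal oligopyrimidine or TOP start) through which mTOR signalling controls their translation. In liver, ribosome production is known to rise with growth and regeneration, and several ribosomal proteins, among them Rpl5 and Rpl11, bind Mdm2 when assembly is disturbed.

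The study was made to compare liver tumours started in different zones of the liver lobule. Cyp1a2_CA tumours (10 libraries, 9 animal numbers) came from mice with Cyp1a2-CreERT2, 1 allele of Ctnnb1(ex3)fl, which yields stable beta-catenin, and Arid2fl/fl, which removes a subunit of a chromatin remodelling complex. Gls2_CA tumours (9 libraries, 5 animal numbers) carried both of these floxed genes with Gls2-CreERT2 in place of the Cyp1a2 driver. Cyp1a2_C was a single library, CB6-L, with Cyp1a2-CreERT2 and Ctnnb1(ex3)fl/+ but no Arid2 allele on its label. The Cre of the tumour mice, a C57BL/6J and Swiss Webster mix, is expressed from the promoter of a gene of pericentral (Cyp1a2) or periportal (Gls2) hepatocytes, and was started with tamoxifen on postnatal day 28, with 6 to 12 months of follow-up. The WT group was 6 livers of C57BL/6J mice that were given AAV-Cre and kept on normal chow for up to 12 months. Strain, virus, tamoxifen and genotype all differ between tumours and WT, and their parts in a difference cannot be told apart. Libraries of 1 animal number (CAB28, GAB242 and GAB294) were summed before testing. Title letters such as S, M and L are used as given.

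Tumour libraries held 36992000 to 49254500 counts and WT libraries 13486500 to 16975300, so depth also differed with the group. Arid2 was at 24.97 to 37.2 CPM (counts scaled by edgeR's TMM to a common library size) in Cyp1a2_CA, 23.4 to 47.1 in Gls2_CA, 42.5 in CB6-L and 60.1 to 72.8 in WT. These are levels of the whole gene, floxed and other exons together. The sum of 10 hepatocyte markers was 16109 to 65666 CPM in Cyp1a2_CA, 6224 to 38086 in Gls2_CA, 785 in CB6-L and 99038 to 121532 in WT, with 0 of the 10 at 0 counts in any library. Sums of 10 macrophage markers were also lower, at 78.3 to 250 CPM in Cyp1a2_CA and 72.6 to 296 in Gls2_CA against 320 to 391 in WT. Sums of 8 endothelial markers were 244 to 442 and 239 to 392.2 against 439 to 510, and those of 9 stellate cell and fibroblast markers 145 to 641 and 92.3 to 326 against 405 to 489. Their part in the results below was not tested. In bulk tissue, fewer cells of a type and less RNA per cell cannot be told apart. CAB44-L, CAB225-L, CB6-L and GAB235-S stood apart through the muscle gene Ttn, at 8668 to 30170 CPM against 1.14 to 92.9 in the other 22 libraries. In these 4, a sum of 10 muscle markers reached 106 to 679 CPM, nearly all of it Tnnt2, while Myh6 was at 0 counts. Counts without these libraries are given beside the main ones. The 13 protein-coding mitochondrial genes took 8.90% to 11.1% of counts in WT and 1.43% to 6.73% in tumours.

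The starts of 8 members are shown as examples of members called higher and called lower, and because most of them share a pyrimidine run at the start. Each run of 60 bases is from RefSeq (GRCm38.p6), 5′ to 3′ on the gene's strand, 40 before the annotated start and 20 from it. Capitals mark a C within 5 bases of the start together with the pyrimidines that follow it, at least 4 in number. The first 4 genes were higher in tumours and the last 4 lower.
Rps24 (chr14:24490638-24490697, plus strand): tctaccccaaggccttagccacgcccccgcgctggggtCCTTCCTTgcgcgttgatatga
Rpl38 (chr11:114668540-114668599, plus strand): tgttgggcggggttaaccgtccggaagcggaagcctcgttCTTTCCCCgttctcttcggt
Rpl19 (chr11:98026670-98026729, plus strand): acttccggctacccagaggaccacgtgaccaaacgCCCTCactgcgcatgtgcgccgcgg
Rpl22 (chr4:152325686-152325745, plus strand): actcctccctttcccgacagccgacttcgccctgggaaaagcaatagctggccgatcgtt
Rps2 (chr17:24720023-24720082, plus strand): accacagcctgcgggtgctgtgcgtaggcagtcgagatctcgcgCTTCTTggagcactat
Rps18 (chr17:33955646-33955705, minus strand): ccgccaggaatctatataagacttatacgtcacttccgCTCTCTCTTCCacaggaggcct
Rpl13a (chr7:45128726-45128785, minus strand): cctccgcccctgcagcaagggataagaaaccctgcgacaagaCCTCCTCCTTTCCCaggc
Rps6 (chr4:86857348-86857407, minus strand): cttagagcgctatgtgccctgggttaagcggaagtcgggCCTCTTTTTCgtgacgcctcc
Rpl22 is shown as the case without such a run within 5 bases of its annotated start. The run was present in members that were higher and in members that were lower.

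As a whole, the 80 genes took a smaller part of the counts in tumours with Arid2 deletion than in WT liver. Their share was 0.880% ± 0.030 (SD, n = 6) in WT, 0.620% ± 0.071 (n = 9 animal numbers) in Cyp1a2_CA and 0.556% ± 0.112 (n = 5) in Gls2_CA. By library, the share ran from 0.847% over a median of 0.874% to 0.928% in WT, from 0.485% over 0.620% to 0.773% in Cyp1a2_CA, and from 0.407% over 0.497% to 0.748% in Gls2_CA. Every one of these 19 tumour libraries was below the lowest WT library. CB6-L, at 1.05%, was above the highest. Taken as a share of counts outside the mitochondrial genes, the members held 0.932% to 1.04% in WT. They held 0.501% to 0.795% in Cyp1a2_CA and 0.422% to 0.764% in Gls2_CA, again without overlap with WT. CB6-L, at 1.07%, was again above the highest WT library. Without the libraries high in Ttn, the library medians were 0.606% in Cyp1a2_CA and 0.482% in Gls2_CA.

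**Figure D1:**
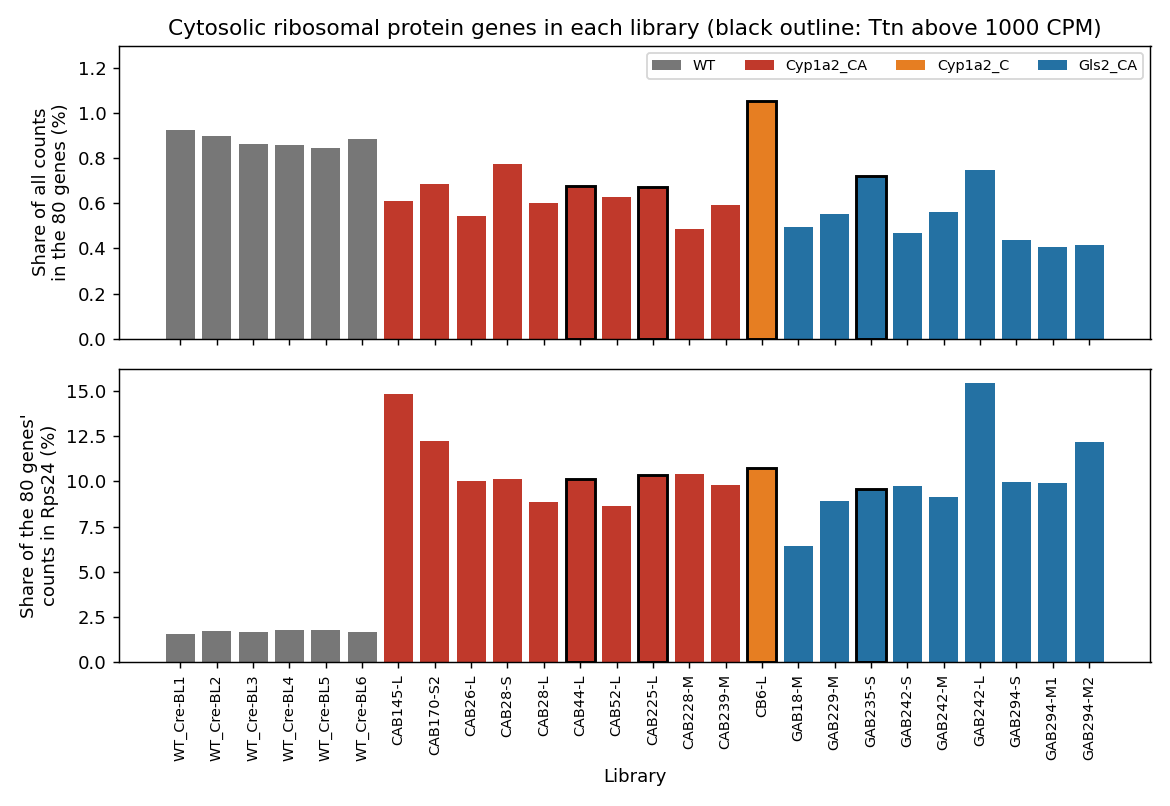
Bars show, for each library, the percentage of all counts in the 80 ribosomal protein genes (upper panel) and the percentage of those counts that fell on Rps24 (lower panel), coloured by group, with Ttn-high libraries outlined. All tumour libraries but CB6-L lie below the WT bars in the upper panel, and in the lower panel Rps24 took 6.43% to 15.5% in tumours against 1.55% to 1.76% in WT.

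Gene by gene, most members were lower in tumours, and a small group was higher. In Cyp1a2_CA against WT, edgeR's quasi-likelihood test with Benjamini-Hochberg adjustment at 0.05 called 56 of 80 members lower and 9 higher, while 32.7% of the 16841 genes tested were called lower and 38.3% higher. The median log2 fold change was -0.89 over members and 0.17 over all genes tested. In 48 members all 9 tumour animals were below all 6 WT livers (21.2% of all genes tested), and in 7 all were above (23.0%). In Gls2_CA against WT, 58 members were called lower and 8 higher, beside 34.0% and 39.2% of 14976 genes, and the median was -1.02 against 0.14. Groups did not overlap for 53 lower members (26% of all genes) and 6 higher ones (29.9%). Both comparisons use the same WT libraries. Without the Ttn-high libraries 57 members were lower and 9 higher in Cyp1a2_CA (35.5% and 37.8% of all genes in that fit), and 60 lower and 8 higher in Gls2_CA (38.1% and 40.4%). With an offset for exon length and GC content fitted in each library, 45 were lower and 19 higher in Cyp1a2_CA (33.3% and 33.8% of all genes), and 40 lower and 15 higher in Gls2_CA (34.5% and 35.1%).

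Both subunits had members in each direction. Of 43 large-subunit genes, 29 were lower and 6 higher in each comparison with WT, with medians of -0.81 (Cyp1a2_CA) and -0.91 (Gls2_CA). Of 30 small-subunit genes, 23 were lower and 3 higher in Cyp1a2_CA and 24 lower and 2 higher in Gls2_CA, with medians of -1.04 and -1.18. Of all genes tested, 32.7% were called lower and 38.3% higher in Cyp1a2_CA, and 34.0% and 39.2% in Gls2_CA. A test of the difference between subunits was not made.

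**Figure D2:**
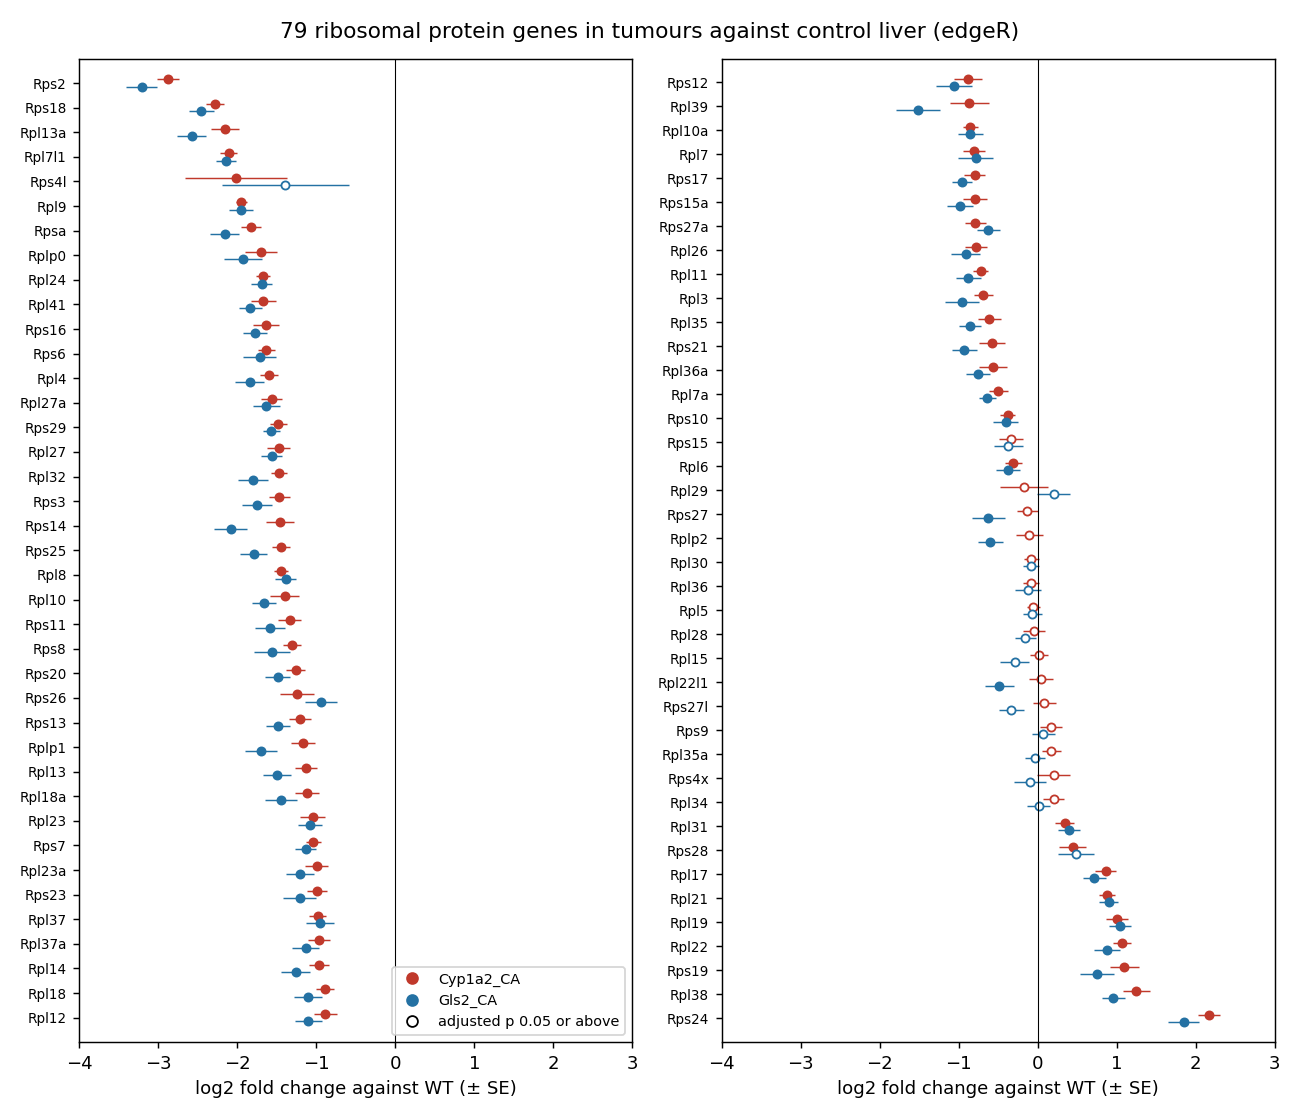
Points give the log2 fold change of 79 members against WT, with its standard error as a bar, for Cyp1a2_CA (red) and Gls2_CA (blue); open points had an adjusted p of 0.05 or above. Members are ordered by the Cyp1a2_CA value, from Rps2 at -2.88 to Rps24 at 2.17.

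Rps2, a small-subunit protein near the entry of the messenger RNA, fell furthest. It stood at 160 CPM in the lowest WT library, with a median of 277 and a highest of 295, at 29.8, 37.1 and 48.99 CPM in Cyp1a2_CA, and at 21.5, 26.4 and 37.9 in Gls2_CA. Even the lowest WT library, WT_Cre-BL1, was above every tumour library. The log2 fold change was -2.88 ± 0.14 (SE, adjusted p = 1.5e-10) in Cyp1a2_CA and -3.21 ± 0.20 (adjusted p = 8.0e-08) in Gls2_CA, or 7.36-fold and 9.28-fold lower. The gene lies on chromosome 17 at 24718116 to 24721929 (mm10). Of the 50-base windows of its main transcript (the shortest principal one annotated), 79.0% also occur in other annotated genes, 71 of them. Reads from such near-identical copies could not be assigned with certainty, and the way they were counted is not stated.

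Rps18, which lies in the head of the small subunit, was at 111, 131 and 142 CPM (lowest, median and highest library) in WT, at 21.4, 27.97 and 34.9 in Cyp1a2_CA and at 15.7, 25.5 and 28.6 in Gls2_CA. The groups were widely separated, while 86.7% of the transcript windows of Rps18 occur in other genes. Its log2 fold changes were -2.28 ± 0.11 (adjusted p = 1.2e-10) and -2.46 ± 0.16 (adjusted p = 9.7e-08). Rpl13a, a large-subunit protein also known for translational silencing after interferon, was at 160, 165 and 174 CPM in WT, 24.8, 36.3 and 59.0 in Cyp1a2_CA, and 19.2, 23.3 and 42.4 in Gls2_CA. It was 4.46-fold lower in Cyp1a2_CA (adjusted p = 2.4e-08) and 5.97-fold lower in Gls2_CA (adjusted p = 2.1e-07). The host gene of 4 small nucleolar RNAs, Rpl13a lies on chromosome 7 at 45125558 to 45128761.

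Rpsa, a small-subunit protein that also serves as a laminin receptor, fell from 130 to 181 CPM in WT libraries to 39.7 to 70.6 in Cyp1a2_CA and 28.3 to 53.8 in Gls2_CA (log2 fold changes -1.83 and -2.16). Rps6, the substrate of S6 kinase used as a readout of mTOR activity, fell from 102.5 to 125 CPM to 28.9 to 48.6 and 24.6 to 57.2 (-1.63 and -1.72). Neither overlapped with WT in either tumour group. Rpl9 fell by 1.95 on the log2 scale in both comparisons and held a narrow range in Cyp1a2_CA, at 33.0 to 41.3 CPM against 127 to 145 in WT. Other genes shared 53.7% of the transcript windows of Rpsa, 84.6% of those of Rps6 and 86.7% of those of Rpl9.

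The stalk proteins recruit elongation factors to the large subunit, and whether their changes differ from each other was not tested. Rplp0, the base of the stalk, was at 148, 167 and 178 CPM in WT, 26.2, 47.5 and 91.3 in Cyp1a2_CA and 29.3, 36.7 and 78.2 in Gls2_CA. It fell by 1.70 ± 0.20 on the log2 scale (adjusted p = 1.8e-06) and by 1.93 ± 0.24 (adjusted p = 1.7e-05). Rplp1 fell by 1.17 and 1.70, from 91.5 to 105.5 CPM in WT to 29.5 to 70.2 in Cyp1a2_CA and 13.6 to 46.8 in Gls2_CA. Rplp2, its partner in the stalk dimer, was at 45.6 to 121 CPM in Cyp1a2_CA, on both sides of the 70.5 to 87.0 of WT, and its log2 fold change of -0.11 ± 0.17 did not pass the test (adjusted p = 0.58). In Gls2_CA, where all libraries were at 31.1 to 67.5 CPM, Rplp2 was called lower at -0.60 ± 0.16 (adjusted p = 0.0051). Under the length and GC offset that call was lost, at -0.30 (adjusted p = 0.16).

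Against this, Rps24 rose in every tumour library. Rps24 is a small-subunit protein needed for maturation of the 18S ribosomal RNA, mutated in some cases of Diamond-Blackfan anaemia, and its gene lies on chromosome 14 at 24487125 to 24496959. Levels were 135, 144 and 148 CPM in WT, 523, 642 and 942 in Cyp1a2_CA, 329, 495 and 1189 in Gls2_CA and 868 in CB6-L. The lowest tumour library, GAB18-M, was more than double the highest WT library. The log2 fold change was 2.17 ± 0.14 (adjusted p = 1.6e-09) in Cyp1a2_CA and 1.85 ± 0.20 (adjusted p = 5.1e-06) in Gls2_CA, and without the Ttn-high libraries 2.18 and 1.74. Of the windows of its main transcript, which has 1613 bases, 19.1% were shared with other genes, 10 of them. Its part of all member counts went from 1.55% to 1.76% in WT to 8.63% to 14.9% in Cyp1a2_CA and 6.43% to 15.5% in Gls2_CA.

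Rpl38, a large-subunit protein known for its part in translating Hox messenger RNAs, was at 78.7, 88.8 and 91.9 CPM in WT, 129, 206 and 405 in Cyp1a2_CA and 95.5, 164 and 254 in Gls2_CA. All tumour libraries were above WT, GAB294-M2 only narrowly. The log2 fold changes were 1.25 ± 0.17 (adjusted p = 8.1e-06) and 0.96 ± 0.15 (adjusted p = 1.0e-04). Rps19, the gene most often mutated in Diamond-Blackfan anaemia, was at 37.3, 39.5 and 49.3 CPM in WT, 69.9, 83.2 and 167 in Cyp1a2_CA and 36.7, 67.0 and 106 in Gls2_CA. It rose by 1.09 ± 0.18 (adjusted p = 6.6e-05) and 0.75 ± 0.21 (adjusted p = 0.0068), with the 3 GAB294 libraries at 36.7 to 45.5 CPM inside the WT range or just below it.

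Other large-subunit genes that rose were Rpl22, Rpl19, Rpl21 and Rpl17. Rpl22, which is lost in some T cell leukaemias, went from 88.7 to 124 CPM in WT to 168 to 253 in Cyp1a2_CA and 137 to 247 in Gls2_CA (log2 fold changes 1.07 and 0.88). Rpl19 went from 95.8 to 127 CPM to 144 to 335 and 146 to 310 (1.01 and 1.04). Rpl21 went from 127 to 158 CPM to 214 to 349 and 218 to 305 (0.87 and 0.90). None of these overlapped with WT in any tumour library. For Rpl21, 55.5% of transcript windows occur in other genes, 82 of them. The share was 79.3% for Rpl19 and 78.7% for Rpl17, against 24.5% for Rpl22. The values of Rpl21, Rpl19 and Rpl17 are therefore less certain. The same holds for Rpl38 (55.4% shared), Rps19 (53.6%), Rpl31 (75.1%) and Rps28 (75.7%). Rpl17 went from 115 to 125 CPM to 182 to 328 and 143 to 309 (0.86 and 0.72). Rpl31 was called at smaller changes in both comparisons (0.34 and 0.40, with overlap), and Rps28 in Cyp1a2_CA at 0.44 (adjusted p = 0.030) and not in Gls2_CA at 0.49 (adjusted p = 0.075).

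**Figure D3:**
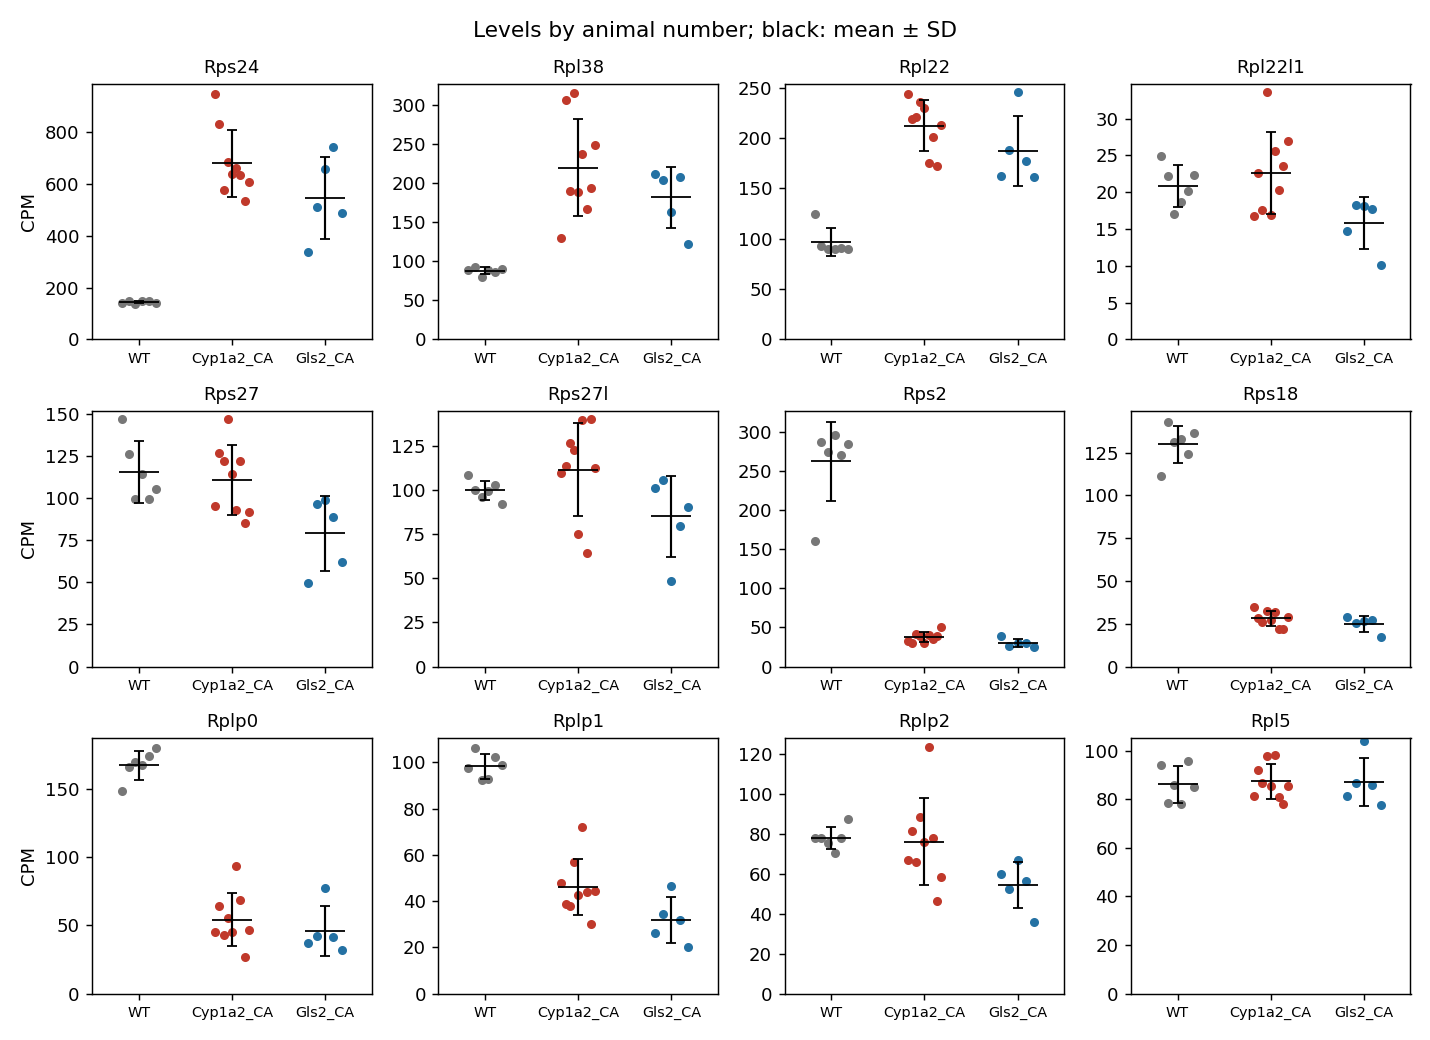
Each point is the level of 1 animal number in CPM, for 12 members in the 3 replicated groups, with mean and SD in black. Rps24, Rpl38 and Rpl22 lie above WT in all tumour animals, Rps2, Rps18, Rplp0 and Rplp1 below, and Rpl5 spans the same range in the 3 groups.

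Rpl5 and Rpl11, which enter the ribosome together with the 5S ribosomal RNA and bind Mdm2, are given side by side. Rpl5 was at 77.8, 84.7 and 95.9 CPM in WT, 76.2, 84.9 and 106 in Cyp1a2_CA and 63.4, 79.9 and 104.6 in Gls2_CA. Its ranges overlapped throughout, and its log2 fold changes of -0.05 ± 0.08 (adjusted p = 0.57) and -0.07 ± 0.12 (adjusted p = 0.64) did not pass the test. Of the transcript windows of Rpl5, 93.8% occur in other genes. Rpl11 fell from 111 to 124 CPM in WT to 57.9 to 102 in Cyp1a2_CA and 50.6 to 94.0 in Gls2_CA (-0.72, adjusted p = 6.3e-06, and -0.88, adjusted p = 3.1e-04). Whether the 2 genes' changes differ was not tested. Rpl30, Rpl36 and Rpl28 were, like Rpl5, within 0.16 of 0 on the log2 scale in both comparisons, and with the length and GC offset these 3 were called higher (0.34, 0.49 and 0.35 in Cyp1a2_CA). With upper-quartile scaling, which moved the median of all genes from 0.17 to -0.05 in Cyp1a2_CA and from 0.14 to -0.09 in Gls2_CA, Rpl5 was called lower at -0.28 and -0.29.

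Paralogues that can share or replace a ribosomal protein were read beside that protein. Rpl22l1, which can take the place of Rpl22 in the ribosome, was at 16.9 to 24.8 CPM in WT, 16.7 to 41.0 in Cyp1a2_CA and 8.996 to 19.1 in Gls2_CA. It was not called in Cyp1a2_CA (0.04 ± 0.15, adjusted p = 0.82), while Rpl22 rose there. In Gls2_CA Rpl22l1 was called lower at -0.49 ± 0.18 (adjusted p = 0.028), a call lost without animal GAB18 (adjusted p = 0.061) and turned in direction by the length and GC offset, to 0.28 (adjusted p = 0.30). In Cyp1a2_CA that offset gave a call of 0.59 (adjusted p = 0.0016).

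Rpl7l1, known as a factor of ribosome assembly, was at 42.7, 48.0 and 59.7 CPM in WT, 9.66, 12.5 and 15.5 in Cyp1a2_CA and 8.29, 11.5 and 13.5 in Gls2_CA. With log2 fold changes of -2.11 ± 0.11 (adjusted p = 2.0e-10) and -2.14 ± 0.13 (adjusted p = 6.1e-08), it was among the 4 lowest members in Cyp1a2_CA. Its canonical relative Rpl7 fell by 0.81 and 0.79 (adjusted p = 6.2e-05 and 0.0063), from 87.7 to 104 CPM in WT to 41.1 to 76.8 and 35.9 to 96.4. In Gls2_CA the overlap with WT came from GAB235-S at 96.4 CPM, the Ttn-high library, without which Rpl7 was at -1.09. Under the length and GC offset its call in Gls2_CA was lost, at -0.27 (adjusted p = 0.40).

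Rps27 and Rps27l, whose proteins differ at few positions and of which Rps27l responds to p53, both overlapped with WT in Cyp1a2_CA. Rps27 was at 98.8 to 146 CPM in WT, 83.3 to 166 in Cyp1a2_CA and 48.3 to 110 in Gls2_CA, and was called lower only in the latter (-0.63 ± 0.21, adjusted p = 0.017). In Cyp1a2_CA, at -0.13 (adjusted p = 0.39), upper-quartile scaling called it lower at -0.36 and the length and GC offset higher at 0.34. Rps27l was at 91.8 to 108 CPM in WT. Its 3 lowest libraries were Ttn-high ones, CB6-L at 24.5 CPM, GAB235-S at 48.8 and CAB225-L at 65.5. GAB294-M2 at 73.1, GAB242-L at 74.1 and the Ttn-high CAB44-L at 75.4 came next. Against WT it was at 0.08 in Cyp1a2_CA (adjusted p = 0.63), and without the Ttn-high libraries at 0.22 (adjusted p = 0.040), called higher. In Gls2_CA it was at -0.33 (adjusted p = 0.078), and at -0.42 (adjusted p = 0.039) without animal GAB229. The offset for length and GC called it higher in both, at 0.98 and 0.82. Rps27a, made as a fusion of ubiquitin and a small-subunit protein, fell by 0.79 in Cyp1a2_CA and 0.62 in Gls2_CA, from 45.7 to 58.4 CPM to 20.1 to 47.6 and 20.1 to 44.8. With the offset it was at -0.26 (adjusted p = 0.068) and 0.11 (adjusted p = 0.60).

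Rps4l, a relative of the X-linked Rps4x, was the member with the widest spread. It was at 2.75 to 10.4 CPM in WT and at 0.05 to 9.04 in Cyp1a2_CA, 0.09 to 11.1 in Gls2_CA and 0.24 in CB6-L. Libraries of 1 animal number differed: CAB28-S held 9.04 CPM and CAB28-L 0.78, and GAB294-M1 6.26 against 0.09 in GAB294-M2. It was called lower in Cyp1a2_CA (-2.02 ± 0.64, adjusted p = 0.011) and not in Gls2_CA (-1.39 ± 0.81, adjusted p = 0.14), where leaving out GAB18 gave -2.79 (adjusted p = 0.0023). Rps4x itself was at 99.2 to 118 CPM in WT, 75.3 to 210 in Cyp1a2_CA and 56.1 to 157 in Gls2_CA, and was not called in either (0.20, adjusted p = 0.41, and -0.10, adjusted p = 0.68), while the offset called it higher in Cyp1a2_CA at 0.70. Rpl39, a small protein at the exit tunnel, fell from 8.53 to 13.02 CPM to 2.57 to 8.73 and 1.26 to 6.21 (-0.87 and -1.52). The offset for length and GC removed both of its calls (-0.32, adjusted p = 0.27, and -0.70, adjusted p = 0.072).

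Between the 2 drivers no member was called. The median log2 difference of the members, Cyp1a2_CA over Gls2_CA, was 0.19, against 0.00 over the 17129 genes tested, of which 0% were called in either direction. The groups overlapped for all 80 members, where 0.0409% of all genes did not overlap and were higher and 0.0525% lower. At an unadjusted p under 0.05 there were 8 members and 554 genes. DESeq2 called 0 members (19 genes in all) and limma-voom 0 members (10 genes). The differences included those of Rpl39 at 0.65 ± 0.34, Rps14 at 0.62 ± 0.23, Rplp1 at 0.54 ± 0.23 and Rpl22l1 at 0.53 ± 0.20, each with an adjusted p of 1.00. Rps14, lost in a form of myelodysplasia, was at 5.48, 9.82 and 14.0 CPM in Cyp1a2_CA and 3.89, 6.12 and 8.48 in Gls2_CA, with overlap. Rps4l had the largest difference the other way, at -0.66 ± 0.92, and Rpl29 followed at -0.38 ± 0.33, with 60.1 ± 29.0 CPM (SD, n = 9) in Cyp1a2_CA and 78.7 ± 17.3 (n = 5) in Gls2_CA. Without the Ttn-high libraries the members' median was 0.27, with 20 members and 1018 of 16898 genes at an unadjusted p under 0.05. Leaving out 1 animal at a time moved the members' median between 0.09 and 0.26.

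CB6-L, the only tumour without an Arid2 allele on its label, has no replicate and was not tested. It had 49 of 80 members below the lowest WT library, where 43.1% of all genes were, and 20 above the highest, where 42.5% were. Scaled by library totals alone, 40 members were below and 31 above, beside 37.9% and 48.3% of all genes. Its pattern among members was that of the other tumours at the ends, with Rps24 at 868 CPM, Rpl19 at 388, Rpl38 at 240, Rps2 at 45.2 and Rps18 at 32.8. Each member was also taken relative to the median member of its library, and that log2 value was set against the same value in WT. By this measure the largest fall in CB6-L was that of Rps4l, at -4.52. Next came Rps2 at -2.16, Rps26 at -1.85 and Rps27l at -1.68. Rps26 was at 21.0 CPM and Rps27l at 24.5, against 88.5 to 121 and 91.8 to 108 in WT. Its hepatocyte marker sum was the lowest of all libraries and its Ttn was high. Markers of stellate cells and fibroblasts summed to 1174 CPM in it against 405 to 489 in WT, and those of cholangiocytes to 311 against 29.8 to 50.02. Their part in these values was not tested.

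Across tumour libraries, most members were high or low together. The correlation of a member's log2 level with the median of the other members had a median Pearson r of 0.79 over the 20 tumour libraries, with 74 of 80 above 0.5. Over the 16 without high Ttn it was 0.78, with 72 above 0.5. This is a description: the libraries share scaling factors, groups and in part animals. The members closest to the common shift were Rps15a, Rpl18 and Rps3 (r = 0.93 each). Those that did not follow it were Rps27l (-0.35, but 0.39 without the Ttn-high libraries), Rpl29 (-0.19), Rps26 (0.02) and Rps4l (0.02).

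The 3 GAB294 libraries held the lowest shares, 0.407% to 0.438%, with 67 to 70 members below WT, where 39.1% to 41.3% of 14976 genes were. The 3 GAB242 libraries ran from 0.467% (GAB242-S) over 0.562% (GAB242-M) to 0.748% (GAB242-L), so tumours of 1 animal number spanned most of the range of the group. In GAB242-L, Rps24 was at 1189 CPM, the highest of all, against 493.3 and 515 in the other two. CAB28-S held 0.773% and CAB28-L 0.602%. The mitochondrial share was 6.73%, 4.06% and 2.11% in GAB242-S, -M and -L, and its part in this order was not tested.

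Rpl29, a large-subunit protein that also binds heparin, fell into separate levels in Cyp1a2_CA. CAB26-L, CAB44-L, CAB225-L and CAB239-M were at 86.6 to 93.6 CPM, and the other 6 libraries at 27.6 to 45.9. WT libraries were spread from 40.6 to 89.2, and 78.5% of the transcript windows of Rpl29 occur in other genes, 84 of them. It was not called against WT, at -0.17 ± 0.30 (adjusted p = 0.63) and 0.20 ± 0.21 (adjusted p = 0.40), though the length and GC offset gave a call of 0.57 in Gls2_CA. Rps26, of the mRNA exit channel, was lowest in CAB52-L at 21.9 CPM and highest in CAB28-S at 67.5 within Cyp1a2_CA, and fell against WT in both comparisons (-1.24, adjusted p = 8.2e-05, and -0.94, adjusted p = 0.0013). With the length and GC offset, its call in Gls2_CA was lost, at -0.14 (adjusted p = 0.68).

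**Figure D4:**
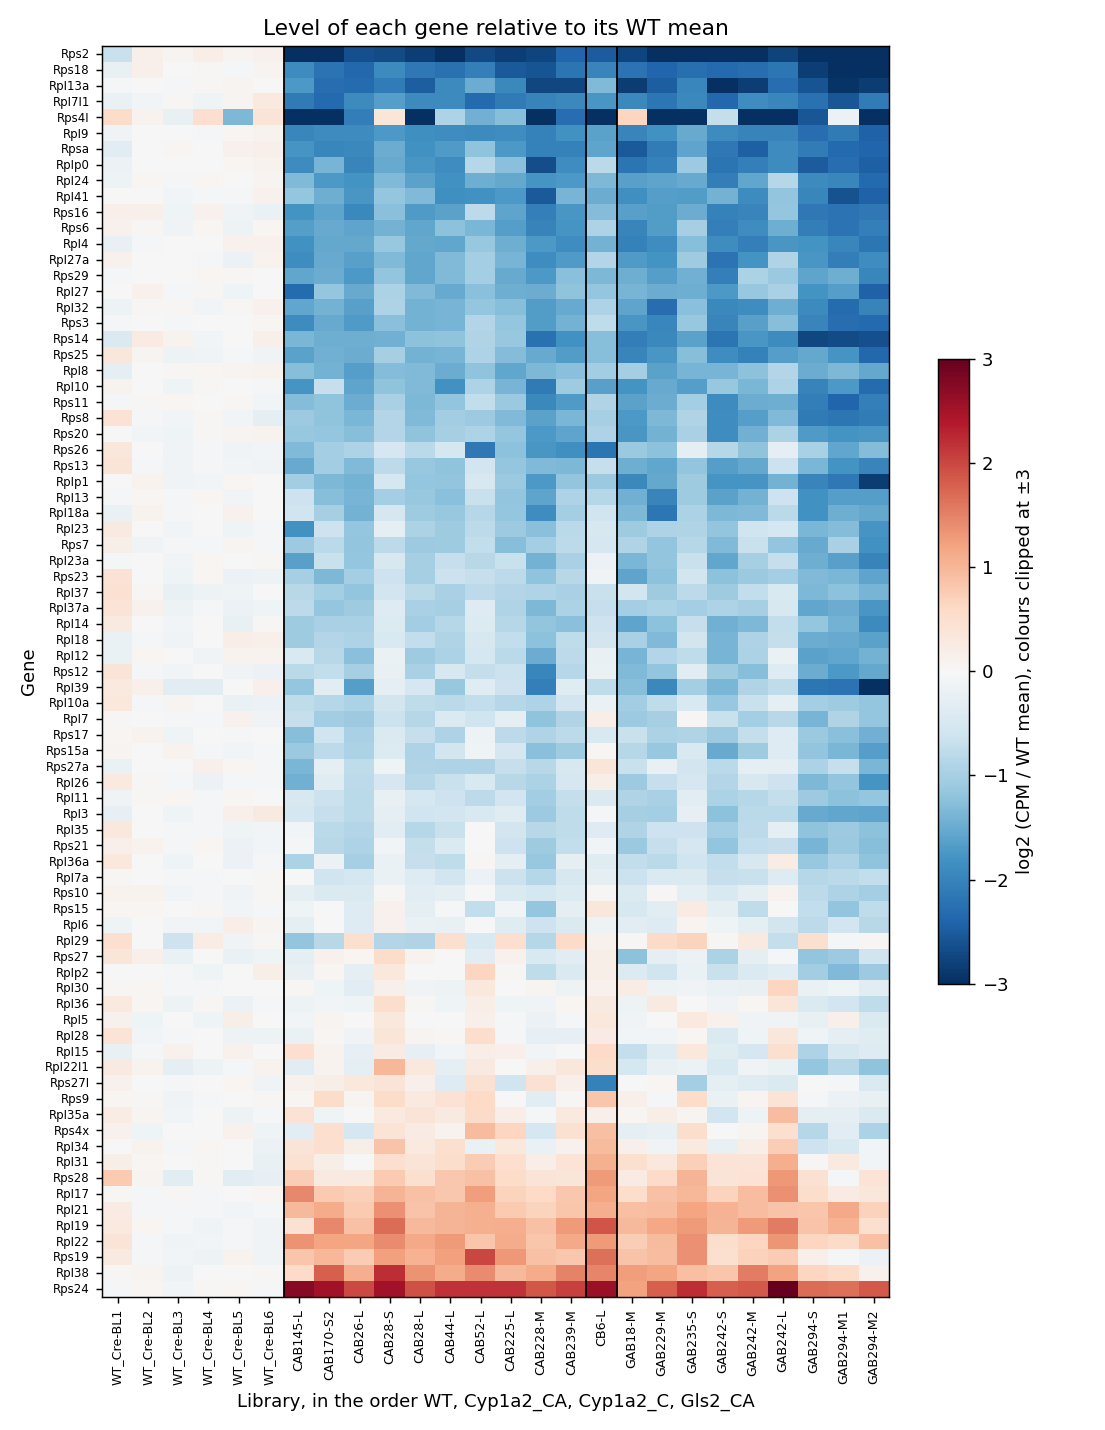
Rows are 79 of the members, in the order of their Cyp1a2_CA fold change, and columns the 26 libraries; colour is the log2 ratio to the WT mean, with colours clipped at 3. Rps2 and its neighbours at the top are low in all 20 tumour columns, Rps24 and its neighbours at the bottom are high, and single cells stand out for Rps4l, Rps27l, Rpl29 and Rps26.

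Relative to the median member of each library, the unequal change of the members was of similar width in all tumours. The SD of the 80 deviations from the WT pattern, on the log2 scale, was 0.90 to 1.21 in tumour libraries and 0.07 to 0.25 in WT. The pattern was taken from these same WT libraries, so their own deviations are small in part by design. The highest SD was that of CAB145-L, where the sparsely counted Rps4l was at -6.22. By these deviations from the WT pattern, Rps24 was the member with the largest rise in 19 of 20 tumour libraries, at 2.67 to 3.67. In GAB18-M it was Rpl38, at 2.38. The largest fall was that of Rps4l, Rps2 or Rpl13a. Within WT, WT_Cre-BL1 stood apart with the SD of 0.25, Rps28 at 0.61 and Rps2 at -0.84. Without it, 56 members were lower and 9 higher in Cyp1a2_CA, beside 31.3% and 36.6% of all genes in that fit. In Gls2_CA 57 were lower and 9 higher, beside 32.4% and 36.9%.

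The members lie on 19 chromosomes, with 14 on chromosome 7. In the GENCODE annotation 29 of them contain a small nucleolar RNA gene. Of these hosts 24 were lower and 2 higher in Cyp1a2_CA, with a median of -1.12, against 32 lower and 7 higher and a median of -0.79 for the other 51. In Gls2_CA the medians were -1.49 and -0.88. Small nucleolar RNAs are released from the introns of such hosts. Over all genes tested in Cyp1a2_CA against WT, 32.7% were called lower and 38.3% higher. No test was made of the difference between hosts and the rest.

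RefSeq starts were at hand for 59 of the 80. A pyrimidine run as defined above was present at 28 of 59 starts (47.5%), against 18.5% of all 27025 genes of the same table. Of the 28 members with the run, 16 were lower and 4 higher in Cyp1a2_CA (median -0.54), and of the 31 without it 24 were lower and 3 higher (median -1.04). Gls2_CA medians were -0.75 and -1.14. Over all genes tested in Cyp1a2_CA against WT, 32.7% were called lower and 38.3% higher. The run was sought only close to 1 annotated start per gene. Several members counted as without it have a pyrimidine run further from that start, so the split also depends on where starts are annotated. In windows from 250 bases before to 50 after the start, on both strands, CGGAAG (the core of ETS factor sites) occurred in 67.8% of members and 17.2% of all genes. GGGCGG (an SP1 motif) occurred in 61.0% and 35.9%, and AAGATGGC (a YY1 motif) in 8.47% and 2.88%. With CGGAAG the median log2 fold change was -0.87 over 40 members in Cyp1a2_CA and -0.97 in Gls2_CA, and without it -0.85 and -0.86 over 19. A match is only a match of letters.

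Near-identical copies are a property of this family. Over the members, a median of 58.7% of the 50-base windows of the main transcript also occurred in other annotated genes. The 29 members with up to 50% shared were 24 lower and 2 higher in Cyp1a2_CA, with a median of -1.12, and the 51 with more were 32 lower and 7 higher, with a median of -0.72. Over all genes tested in that comparison, 32.7% were called lower and 38.3% higher. Both sets held members at both ends, Rps24 among the less shared and Rps2 among the more shared. Across members, Spearman's rho between fold change and shared windows was 0.17 in both comparisons, with exon length 0.06 and 0.04, and with the length of the main transcript -0.33 and -0.29.

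Short genes outside the family were also read, beside all genes tested. Of the latter, 32.7% were called lower and 38.3% higher in Cyp1a2_CA, and 34.0% and 39.2% in Gls2_CA. Of 725 other genes with at most 1000 bases of annotated exon, 398 were lower and 105 higher in Cyp1a2_CA, with a median of -1.01, and of 551 in Gls2_CA 326 and 70, with a median of -1.08. Only 11 of the members were that short. Other genes in the exon length range of the members, 10593 and 9508 of them, had medians of -0.01 and -0.08. Of these, 35.8% were lower and 33.6% higher in Cyp1a2_CA, and 37.9% and 33.7% in Gls2_CA. Under the length and GC offset, the median of members was -0.55 in Cyp1a2_CA and -0.47 in Gls2_CA, and Rps2 (-2.66 and -2.92), Rps18 (-1.97 and -2.03), Rps6 (-1.47 and -1.48), Rps24 (1.78 and 1.49) and Rpl38 (1.77 and 1.63) kept their calls.

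Genes around the ribosome were read from lists of textbook function. Of all genes tested, 32.7% were called lower and 38.3% higher in Cyp1a2_CA, and 34.0% and 39.2% in Gls2_CA. These shares stand beside the list counts here and below. Of the 6 ribosomal protein genes that the symbol rule misses, 5 could be tested and 4 were lower in each comparison, among them Rps3a1, which encodes a small-subunit protein (-1.47 and -1.82). The 77 mitochondrial ribosomal proteins, of a different ribosome, had 56 lower and 10 higher in Cyp1a2_CA (median -1.03) and 54 lower and 9 higher in Gls2_CA (median -1.10). Mrpl53, with the smallest p of that list in both comparisons, was at -2.11 and -2.31. The proteasome, a complex unrelated in function, had 28 of 31 subunit genes lower and 1 higher in each comparison, with medians of -1.37 and -1.34.

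Of 29 initiation factor genes, 23 were lower and 5 higher in Cyp1a2_CA and 22 lower and 5 higher in Gls2_CA, led by Eif3i, a subunit of the factor that binds the small subunit (-2.14 and -2.48). Their summed level went the other way. It was 4915 to 8308 CPM in Cyp1a2_CA libraries and 4732 to 8306 in Gls2_CA, against 3592 to 4008 in WT and 3940 in CB6-L. Of 39 ribosome biogenesis genes tested, 27 and 26 were lower and 6 higher, with Heatr1, of the small-subunit processome, at -2.33 and -2.54. All 7 snoRNA host transcripts outside the family were lower in Cyp1a2_CA and 6 of 7 in Gls2_CA, with Snhg12 at -2.47 and -2.52. Of 11 genes of elongation and other TOP messages, 6 were lower and 3 higher in each. Eef1g fell by 1.56 and 1.90, while Eef1d, of the same exchange factor, rose by 3.03 and 3.01.

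In the other direction, 8 of 12 mTOR pathway genes were higher and 3 lower in each comparison, where 38.3% and 39.2% of all genes tested were higher. The mTOR pathway genes act in opposite senses, and Tsc2, which restrains mTOR, was at 2.60 and 2.61 while Rheb, an activator of mTOR, fell by 1.67 in Cyp1a2_CA. The RNA polymerase I list was split by number of genes, with 6 of 14 higher and 7 lower in Cyp1a2_CA and 5 and 7 in Gls2_CA. Its summed level was higher in tumours, at 529 to 666 CPM in Cyp1a2_CA libraries and 454 to 703 in Gls2_CA against 221 to 287 in WT. Ubtf, which opens ribosomal DNA for transcription, was at 2.78 and 2.72, and Polr1c, a polymerase subunit, at -1.73 in Cyp1a2_CA. Between the drivers, no gene of these lists was called, where 0% of all 17129 genes tested were called in either direction.

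**Figure D5:**
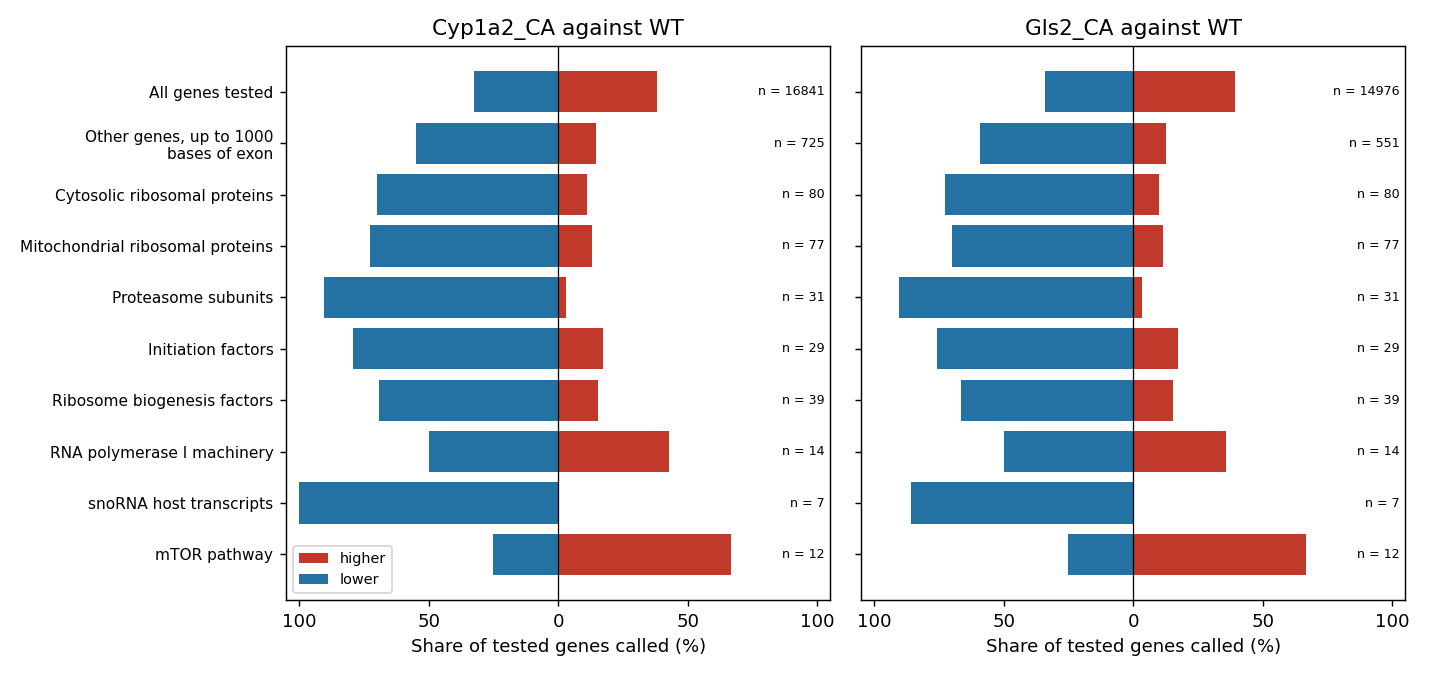
Bars to the right give the percentage of tested genes called higher and bars to the left the percentage called lower against WT, for all genes, for short genes, for the 80 members and for related lists, with the number tested. The members, the mitochondrial ribosomal proteins and the short genes had far more genes lower than higher, unlike all genes tested and the mTOR pathway. Of the 80 members, only 11 were as short as these short genes.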

How the data were processed

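Bulk RNA sequencing covered 26 libraries of mouse liver tumours and livers. The authors deposited whole-number read counts per gene symbol, with no normalization stated in the file. Per the labels' protocols, RNA from frozen tissue was DNase-treated and made into Nugen Ovation libraries, and per the submitters' processing notes the build was mm10. Aligner, counter and strand setting were not given in the sources used here. From the deposited counts, CPM with TMM factors were computed, and libraries of 1 animal number were summed and tested by pairs of groups with edgeR 4.0.16 (filterByExpr, robust quasi-likelihood fit, Benjamini-Hochberg over all genes tested, R 4.3.3). The SE is the log2 fold change over the root of F. DESeq2 1.42.0 and limma 3.58.1 (voom) were alternatives, with other scalings, filters and left-out animals. The method was tested on simulated data. Nothing says how animal numbers map to animals beyond the titles, so p-values measure the spread between these numbers. Exon lengths, GC, shared windows and snoRNA genes came from GENCODE M21. All members can be named. Values by library are given for paralogue pairs, stalk proteins, Rpl5, Rpl11, Rps6, Rpsa, the 4 highest and 4 lowest members of each comparison, and leading members of libraries that stand apart. From each related list the leading genes are among the 3 with the smallest p. Rpl9, Rpl17, Rpl18, Rpl28, Rpl30, Rpl31, Rpl36, Rps3, Rps15a and Rps28 were named after their values were seen. Members and lists were chosen with earlier results of these data known. Results for a few genes are not reported here.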

Additional observations from a re-analysis of the deposited data

Results flagged for a closer look

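Of 90 sets of animal values examined, 12 had a highest or lowest animal far from the rest by Dixon's ratio, where chance gives about 1 in 20 for a single set. The sets share animals and scaling, and most members vary together, so the number 12 cannot be weighed against that rate. WT_Cre-BL1 accounted for 5 of these: it had the highest WT median member level (111 CPM, next 100.2), Rpl21 (159 CPM, next 133), Rpl22 (125, next 92.7) and Rps26 (122, next 95.2), and the lowest Rps2 (161 CPM, next 271). GAB235, a Ttn-high library, was the highest Gls2_CA animal for Rpl21 (303 CPM), Rpl7 (95.8) and Rplp0 (77.7). CAB52 was the highest Cyp1a2_CA animal for Rps19 (171 CPM) and Rpsa (72.4). GAB294 was the lowest Gls2_CA animal for Rps18 (17.0 CPM), and GAB18 the highest for Rps4l (11.4 CPM, next 2.37).

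Signals outside the tests were seen in 2 places. The untested library CB6-L had 1.05% of its counts in the members, above the highest WT library at 0.928%. Rpl39l, a paralogue of Rpl39 known from testis and below the count minimum, had 20 of its 24 counts in GAB235-S and 0 in all WT libraries.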

How the results depend on the processing

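Counts of members called lower stayed within 1.5 times of the main count under every alternative run. Upper-quartile factors moved the Cyp1a2_CA against WT median to -1.11. The offset for exon length and GC moved that median to -0.55 and the members called higher to 19, and for Gls2_CA against WT the median to -0.47 and the members called higher to 15. With a call in at least 1 of the fits, it also turned the direction of Rps27 in Cyp1a2_CA (0.34) and of Rpl22l1 (0.28), Rps27 (0.0466), Rps27a (0.11) and Rps27l (0.82) in Gls2_CA. The cause was not tested. Leaving out 1 animal at a time gave 56 to 57 lower, 8 to 9 higher and medians of -0.93 to -0.83 in Cyp1a2_CA against WT, 56 to 60, 7 to 9 and -1.16 to -0.90 in Gls2_CA against WT, and 0 called with medians of 0.09 to 0.26 between drivers. Of all genes in those fits, 31.0% to 33.5% were lower and 36.2% to 38.7% higher in Cyp1a2_CA against WT. In Gls2_CA against WT these shares were 32.1% to 38.1% and 36.3% to 40.4%. Of the values for single named members under the other alternatives, 1106 kept their side of the threshold, of which 22 changed sign without a call in either fit. Another 12 gained a call, 7 lost one and 5 changed sign with a call. No paired analysis was possible because the replicate numbers follow accession order and tie no animal, litter or batch across groups. Exon properties were known for 74.4% of genes in the table and for all 80 members, and the offset was fitted on those genes.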

Other observations

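Rpl3l, a muscle paralogue of Rpl3 that the count minimum left out, was at 0 to 4 counts in each WT library and had its highest values in CAB239-M (53 counts), GAB18-M (36), CAB228-M (28) and GAB235-S (20), so its order did not follow Ttn. Rpl32l was at 3 to 23 counts in every library, the highest being WT_Cre-BL1.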
